A study of Mus musculus with 4 samples.

Results

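A set of 40 genes of fatty acid oxidation and of the peroxisome were followed in C8-D1A, a mouse line labelled as astrocytes, after exposure to MBP. The list was given by gene name: 40 of the 24169 genes in the deposited expression table carry these names, and all 40 were found. They were split by where their proteins work into 17 genes of mitochondrial oxidation, 8 of peroxisomal oxidation, 12 peroxins, 2 enzymes found in both organelles and 1 cytosolic thioesterase. The compared groups were cells kept for 24 h in 1 mM MBP (2 libraries, MBP 1 and 2) and untreated cells of the same line (2 libraries, control 1 and 2). The labels give no vehicle and write the compound only as MBP, while the series title speaks of maternal exposure to DBP. Separate cultures are not mentioned for either group, so p-values reflect only how far these samples scatter, which could be technical scatter.

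Mitochondria shorten fatty acids by beta-oxidation, a cycle of dehydrogenation, hydration, a further dehydrogenation and thiolysis that releases acetyl-CoA, after the carnitine shuttle has carried the acyl group across the inner membrane. Peroxisomes run a related cycle on very long, branched and dicarboxylic acyl chains, with enzymes of their own that begin with an oxidase and make hydrogen peroxide. Peroxins build the organelle, inserting its membrane proteins and importing its matrix enzymes. In rodent liver many of these genes are targets of the receptor PPAR alpha.

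The libraries held 23571000 to 25907000 reads, rounded. Values are FPKM, read numbers scaled by library depth and by the joined length of all exons of a gene. Of 11 astrocyte markers 4 (Gja1, Aldh1l1, Slc1a3 and Aqp4) had a mean under 0.1 FPKM, Gfap lay between 0.119 and 0.282 FPKM, and Sox9, Glul, S100b and Fabp7 reached the expression filter. The summed FPKM of the 11 was 22.8 and 23.1 in MBP, against 22.4 and 24.4 in the controls. The 6 oligodendrocyte lineage markers in the table summed to 105 and 105 in MBP and 119 and 113 in the controls, most of it Sox10. The filter was reached by 1 of 5 markers of microglia and macrophages, 2 of 6 of neurons, 1 of 5 of fibroblasts and pericytes and 1 of 4 of endothelium. The 6 neuronal markers summed to 25.9 and 25.5 in MBP and 35.4 and 32.6 in the controls, most of it Tubb3, a neuronal tubulin, which had 23.8 and 23.3 FPKM in MBP, against 33.2 and 30.8 FPKM in the controls (log2 fold change -0.43, unadjusted p = 0.000825, limma adjusted p = 0.421). That difference in Tubb3 is larger than that of any of the 40 genes that was tested. Map2, the other neuronal marker tested, had 2.12 and 2.22 FPKM in MBP, against 2.18 and 1.78 FPKM in the controls. Its groups overlapped, with a log2 fold change of 0.092, and the remaining 4 neuronal markers had means under 0.1 FPKM. The part of these marker differences in the results below was not tested.

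The question was whether genes of fatty acid oxidation and of the peroxisome differ between MBP-treated and untreated cells. None of the 40 passed the test. Fold changes are given as log2 of MBP over control on values of log2(FPKM + 1), which understates changes of low genes, and they were tested with limma across all 12403 genes that reached 1 FPKM in at least 2 of the 4 libraries. Of the 40 genes 37 were tested, and adjusted p-values lay between 0.503 and 0.997. Of all tested genes limma called 0 (0%) at an adjusted p under 0.05. At an unadjusted p under 0.05 there were 3 of the 37 members, beside 9.68% of all tested genes. Of these 1 was higher in MBP (Acadl), beside 3.81% of all genes, and 2 were lower (Acadvl and Eci1), beside 5.87%. Limma-voom on reads recovered from the FPKM called 9 genes of 11188, and 0 of the 34 members it could include. Log2 fold changes of the members ran from -0.32 for Acadvl to 0.20 for Acadl, and their 95% intervals reached 0.225 to either side at the median. Ranges in parentheses after a fold change are these 95% intervals. In a bulk extract, fewer cells with a transcript and less of it per cell cannot be told apart.

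**Figure D1:**
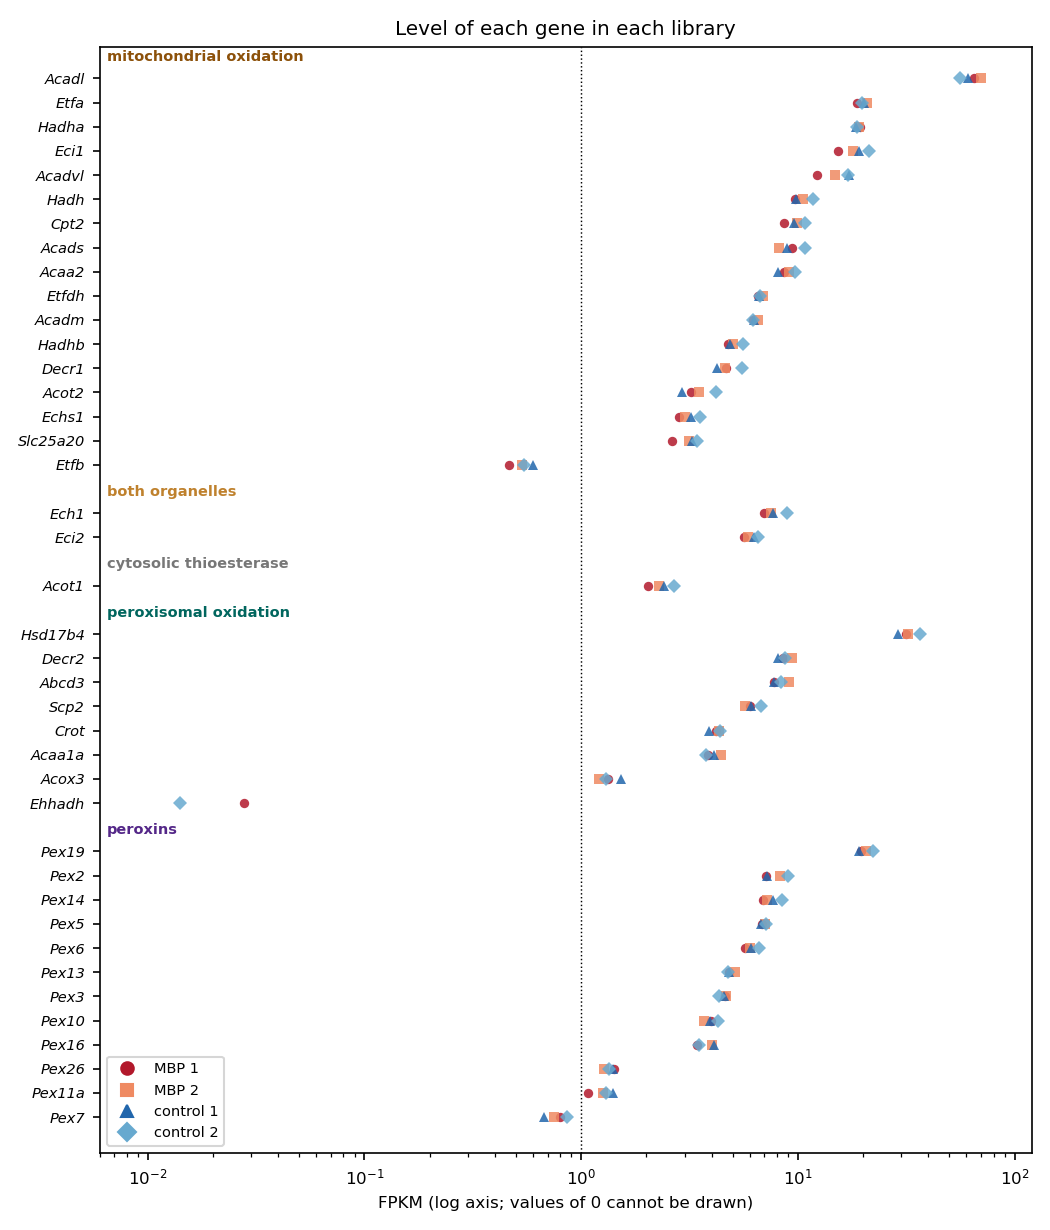
FPKM of the 40 genes in each library on a log axis, grouped by where the proteins work, with MBP 1 and 2 in reds and control 1 and 2 in blues and the filter of 1 FPKM dotted. The libraries of a gene lie close together next to the distance between genes, from Acadl at 56.0 to 69.7 FPKM down to Ehhadh, listed at 0 in MBP 2 and control 1 and not drawn there.

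The groups did not overlap for 14 of the 37 tested genes, 37.8%, where they did not overlap for 44.8% of all tested genes. By direction, 3 of these lay higher in MBP (21.3% of all genes did) and 11 lower (23.5% of all genes did). The higher ones were Acadl, Hadha and Pex3. The lower ones were Acadvl, Slc25a20, Echs1 and Eci1 of mitochondrial oxidation, Scp2 of peroxisomal oxidation, Ech1, Eci2 and Acot1, and Pex6, Pex11a and Pex14. After a correction for GC content and transcript length Pex3 stood at -0.028 and Pex6 at 0.0079, each on the other side of 0. Fold changes were positive for 10 of the 37 and negative for 27, or 73.0%, beside 48.4% and 51.6% of all tested genes. This split varied with the library left out: it was 19 positive and 18 negative without control 2, and 16 and 21 without MBP 1. It was 11 and 26 without control 1, and 7 and 30 without MBP 2. With the GC and length correction it was 13 and 24.

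Mitochondrial oxidation begins with acyl-CoA dehydrogenases that differ in the chain length they take, and the members for the longest chains differed in opposite directions without passing the test. Acadl, the long-chain enzyme (chromosome 1, 66830839 to 66863277, minus strand, GRCm38), had 64.7 and 69.7 FPKM in the MBP libraries, against 61.2 and 56.01 FPKM in the controls. Its groups did not overlap, and it was the most abundant of the 40, above 96.0% of tested genes. The log2 fold change was 0.20 (95% interval 0.010 to 0.38, limma adjusted p = 0.512), and 0.13 to 0.26 with single libraries left out.

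Acadvl, the very-long-chain enzyme of the inner membrane (chromosome 11, 70010183 to 70015411, minus strand), had 12.3 and 14.8 FPKM in the MBP libraries, against 17.2 and 16.98 FPKM in the controls. Both MBP libraries lay below both controls, and MBP 1 was the lowest. Its log2 fold change of -0.32 (95% interval -0.56 to -0.079, limma adjusted p = 0.503) was the largest in size among the 37, and stood at -0.25 after the GC and length correction. With single libraries left out it ran from -0.45 without MBP 2 to -0.20 without MBP 1. In the GENCODE annotation 42.9% of the exon bases of Acadvl lie within exons of Dvl2 on the opposite strand, and no source used here says whether counting was stranded. Dvl2, a signal protein of the Wnt pathway, had 11.7 and 11.8 FPKM in the MBP libraries, against 11.4 and 11.3 FPKM in the controls. The part of reads from the other strand in the Acadvl value was not tested. The ratio of Acadl to Acadvl, a pair singled out after their values were seen, was 5.26 and 4.71 in MBP and 3.55 and 3.30 in the controls.

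The medium-chain and short-chain dehydrogenases showed no such separation. Acadm, the medium-chain enzyme, had 6.18 and 6.58 FPKM in MBP, against 6.28 and 6.23 FPKM in the controls, and a log2 fold change of 0.024 (-0.14 to 0.19). Acads, the short-chain enzyme, had 9.402 and 8.18 FPKM in MBP, against 8.87 and 10.8 FPKM in the controls, and a log2 fold change of -0.14 (-0.43 to 0.15), with overlapping groups. The level of Acadl was 8.98 to 10.6 times that of Acadm in FPKM, and 4.92 to 5.80 times per kilobase of the longest transcript. The joined exons of Acadm are 1.91 times as long as its longest transcript.

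Entry through the carnitine shuttle is represented by Slc25a20, the carrier that brings acylcarnitine across the inner membrane, and by Cpt2, which returns the acyl group to CoA. Slc25a20 had 2.62 and 3.14 FPKM in MBP, against 3.23 and 3.43 FPKM in the controls, a log2 fold change of -0.16 (-0.41 to 0.091), and its groups did not overlap. Cpt2 had 8.63 and 9.86 FPKM in MBP, against 9.55 and 10.8 FPKM in the controls, a log2 fold change of -0.12 (-0.36 to 0.11), and control 1 lay below MBP 2.

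Later steps of the cycle are carried by Echs1, the short-chain hydratase, Hadh, the short-chain hydroxyacyl dehydrogenase, Acaa2, the thiolase, and the trifunctional protein of Hadha and Hadhb, which takes long chains. Echs1 had 2.83 and 3.02 FPKM in MBP, against 3.202 and 3.53 FPKM in the controls, with groups that did not overlap and a log2 fold change of -0.15 (-0.37 to 0.063, limma adjusted p = 0.571), which ran from -0.21 without control 1 to -0.10 without control 2. Groups overlapped for Hadh, with a log2 fold change of -0.077, and for Acaa2, with one of -0.00095. Hadha had 19.3 and 19.2 FPKM in the MBP libraries, against 18.5 and 18.8 FPKM in the controls, and Hadhb had 4.75 and 5.02 FPKM in the MBP libraries, against 4.87 and 5.56 FPKM in the controls. The MBP values of Hadha lay narrowly above the controls, with a log2 fold change of 0.042 (-0.090 to 0.17), while Hadhb stood at -0.076 (-0.29 to 0.14) with overlapping groups. The ratio of the Hadha level to the Hadhb level was 4.06 and 3.82 in MBP and 3.80 and 3.39 in the controls, and per kilobase of the longest transcript 5.87 and 5.52 in MBP and 5.49 and 4.90 in the controls.

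Hadha and Hadhb sit head to head. RefSeq places the start of Hadha at 30154980 on the minus strand of chromosome 5 and that of Hadhb at 30155253 on the plus strand (GRCm38.p6), 272 bases apart. By RefSeq the 250 bases before Hadhb therefore lie between the starts of these genes, whose transcripts differ in FPKM. Protein levels of the subunits were not measured. The deposited table lets Hadha reach 30155162 and Hadhb begin at 30155248, so that by its coordinates most of this window lies within Hadha. The window is shown because it adjoins both genes, and the Acadl window because it belongs to the most abundant gene. The Etfa and Etfb windows are shown because the FPKM of these partner genes differ widely, though Etfb rests on 13 to 17 reads. The Ehhadh window is shown because that gene was nearly silent. Each is the 250 bases before the RefSeq start in GRCm38.p6, 5′ to 3′ on the strand of the gene, with capitals on matches in either orientation. The motifs were the GC box GGGCGG, the box of factor NF-Y, which is CCAAT, the nuclear receptor half-site AGGTCA and the start-site motif TATAAA.
Acadl (chr1:66863310-66863559, minus strand): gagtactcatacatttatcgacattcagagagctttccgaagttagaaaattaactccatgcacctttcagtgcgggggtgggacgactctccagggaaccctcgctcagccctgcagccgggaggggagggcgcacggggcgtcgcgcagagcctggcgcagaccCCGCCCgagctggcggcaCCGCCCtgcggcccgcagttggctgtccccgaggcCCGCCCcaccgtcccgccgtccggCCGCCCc
Hadhb (chr5:30155003-30155252, plus strand): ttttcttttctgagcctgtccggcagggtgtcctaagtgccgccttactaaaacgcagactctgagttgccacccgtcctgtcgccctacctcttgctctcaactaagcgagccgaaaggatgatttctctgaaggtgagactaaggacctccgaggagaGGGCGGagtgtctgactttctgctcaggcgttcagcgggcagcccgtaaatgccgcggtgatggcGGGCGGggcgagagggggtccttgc
Etfa (chr9:55512244-55512493, minus strand): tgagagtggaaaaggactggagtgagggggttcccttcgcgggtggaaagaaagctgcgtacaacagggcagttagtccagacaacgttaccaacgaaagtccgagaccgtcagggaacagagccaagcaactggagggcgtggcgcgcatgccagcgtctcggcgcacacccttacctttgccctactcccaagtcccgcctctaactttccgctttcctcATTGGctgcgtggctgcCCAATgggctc
Etfb (chr7:43443822-43444071, plus strand): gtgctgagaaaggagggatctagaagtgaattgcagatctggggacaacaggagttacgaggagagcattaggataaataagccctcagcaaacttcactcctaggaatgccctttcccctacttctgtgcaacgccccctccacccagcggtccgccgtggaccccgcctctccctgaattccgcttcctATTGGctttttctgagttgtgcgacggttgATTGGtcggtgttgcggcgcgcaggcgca
Ehhadh (chr16:21787835-21788084, minus strand): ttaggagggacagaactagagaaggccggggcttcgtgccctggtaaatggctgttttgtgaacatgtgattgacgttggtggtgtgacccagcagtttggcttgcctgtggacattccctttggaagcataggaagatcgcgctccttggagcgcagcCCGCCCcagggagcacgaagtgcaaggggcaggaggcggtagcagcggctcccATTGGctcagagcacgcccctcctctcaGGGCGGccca

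The Acadl window held 4 GC boxes and 25 CpG dinucleotides, and the window before Hadhb held 2 GC boxes and 17 CpG. The Etfa and Etfb windows each held 2 CCAAT boxes and 0 GC boxes, with 16 and 14 CpG. The nearly silent Ehhadh had 2 GC boxes, 1 CCAAT box and 12 CpG. RefSeq windows were matched for 35 of the 40 genes, those without one being Acaa2, Decr1, Hsd17b4, Pex2 and Pex19. GGGCGG was found in 24 of the 35 (68.6%), against 32.7% of all 32851 windows of this length, and CpG counts had a median of 12, against 6 over all windows. The member windows were also richer in GC, with a median of 58.8%, against 52.4%. All windows were not matched to those of the members in GC content or expression, so the GGGCGG share cannot be read as particular to these genes. AGGTCA was found in 4 (11.4%, against 14.0%), those of Acadm, Acadvl, Echs1 and Scp2, CCAAT in 13 (37.1%, against 33.8%) and TATAAA in 3 (8.57%, against 12.4%). A direct repeat of AGGTCA with 1 base of any kind between the copies was in 0 of the 35 and in 0.0335% of all windows. These are matches of letters on both strands, the repeat contains the half-site, and a window without a match says nothing of sites elsewhere.

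Electrons from the dehydrogenases pass to the electron transfer flavoprotein, made of the subunits Etfa and Etfb, and from it to Etfdh, which hands them to ubiquinone. Etfa (chromosome 9, 55454508 to 55512243, minus strand) had 18.7 and 20.9 FPKM in the MBP libraries, against 20.1 and 19.8 FPKM in the controls, a log2 fold change of -0.012 (-0.19 to 0.16), and Etfdh had 6.55 and 6.89 FPKM in MBP, against 6.63 and 6.65 FPKM in the controls, a log2 fold change of 0.014 (-0.15 to 0.17). Etfb (chromosome 7, 43444083 to 43457800, plus strand) lay under the filter, with 0.466 and 0.531 FPKM in the MBP libraries, against 0.5998 and 0.547 FPKM in the controls, from 13 and 16 reads in MBP and 17 and 15 in the controls. Reads this few allow no fold between groups to be read for Etfb, and they limit the precision of any ratio to it. The ratio of the Etfa level to the Etfb level was 40.2 and 39.4 in MBP and 33.5 and 36.2 in the controls, and per kilobase of the longest transcript 40.7 and 39.8 in MBP and 33.9 and 36.7 in the controls. In GENCODE 58.2% of the exon bases of Etfb also belong to Gm45233 on the same strand. No gene of that name was found among those with expression values. The part of this overlap in the low Etfb value was not tested.

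Auxiliary enzymes of unsaturated chains and the thioesterases complete the mitochondrial set. Eci1, the isomerase that shifts double bonds (chromosome 17, 24426683 to 24439316, plus strand), had 15.3 and 18.04 FPKM in the MBP libraries, against 19.2 and 21.2 FPKM in the controls. Both MBP libraries lay below both controls, with a log2 fold change of -0.26 (95% interval -0.51 to -0.017, limma adjusted p = 0.512), -0.18 after the GC and length correction and -0.38 to -0.15 with single libraries left out. Decr1, the dienoyl-CoA reductase, had 4.66 and 4.63 FPKM in MBP, against 4.25 and 5.51 FPKM in the controls, with groups that overlapped. Ech1 and Eci2, a dienoyl-CoA isomerase and an enoyl-CoA isomerase found in mitochondria and peroxisomes, had the pattern of Eci1 at smaller size. Ech1 had 6.95 and 7.52 FPKM in MBP, against 7.68 and 8.92 FPKM in the controls (log2 fold change -0.17, -0.40 to 0.055), and Eci2 had 5.62 and 5.88 FPKM in MBP, against 6.301 and 6.57 FPKM in the controls (log2 fold change -0.14, -0.31 to 0.027). The groups overlapped for neither gene, and limma's adjusted p was 0.558 for Ech1 and 0.536 for Eci2. The value for Ech1 ran from -0.27 without control 1 to -0.077 without control 2. Ech1 stood at -0.085 and Eci2 at -0.14 after the GC and length correction.

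Acot1 of the cytosol and Acot2 of mitochondria hydrolyse acyl-CoA, lie next to each other on chromosome 12 and are near-identical copies, so reads may have been split between them and both values are uncertain. Acot1 had 2.05 and 2.29 FPKM in MBP, against 2.400 and 2.67 FPKM in the controls, with groups that did not overlap and a log2 fold change of -0.16 (-0.41 to 0.091), which ran from -0.21 without MBP 2 to -0.10 without MBP 1. Acot2 had 3.21 and 3.498 FPKM in MBP, against 2.92 and 4.19 FPKM in the controls, where the controls spanned both MBP libraries and the log2 fold change was -0.051 (-0.43 to 0.33). In rodent liver both are known for strong induction by PPAR alpha agonists. Here both fold changes were negative in the main analysis, with intervals that include 0. After the GC and length correction Acot1 stood at -0.16 and Acot2 at 0.015. Activity of PPAR alpha was not tested.

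Peroxisomal oxidation needs Abcd3, which carries branched and dicarboxylic acyl-CoA into the organelle, and the members of this step and the next overlapped between groups. Abcd3 had 7.77 and 9.12 FPKM in the MBP libraries, against 7.72 and 8.35 FPKM in the controls, a log2 fold change of 0.061 (-0.17 to 0.30). Acox3, an oxidase of branched chains, stood just above the filter at 1.33 and 1.21 FPKM in MBP, against 1.53 and 1.300 FPKM in the controls, a log2 fold change of -0.088 (-0.38 to 0.21). Hsd17b4, the D-bifunctional protein that hydrates and dehydrogenates the chain (chromosome 18, 50128201 to 50196269, plus strand), was the most abundant peroxisomal member, with 31.5 and 32.2 FPKM in the MBP libraries, against 28.96 and 36.7 FPKM in the controls. The gap between its controls was wider than that between the group means, and its log2 fold change was -0.034 (-0.33 to 0.26).

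Ehhadh, the L-bifunctional enzyme and a classic PPAR alpha target of rodent liver (chromosome 16, 21761287 to 21787844, minus strand), was nearly silent. It was listed at 0.0277 FPKM in MBP 1, at 0 in MBP 2 and control 1, and at 0.0141 FPKM in control 2, so no fold is given. Hsd17b4, the D-bifunctional protein, lay between 29.0 and 36.7 FPKM. Thiolysis falls to Acaa1a and to Scp2, which also binds lipids. Acaa1a had 3.86 and 4.399 FPKM in MBP, against 4.103 and 3.79 FPKM in the controls, a log2 fold change of 0.051 (-0.17 to 0.28). Scp2 had 5.99 and 5.69 FPKM in MBP, against 6.09 and 6.76 FPKM in the controls, the only tested peroxisomal member whose groups did not overlap, with a log2 fold change of -0.12 (-0.31 to 0.075, limma adjusted p = 0.611) that ran from -0.18 without control 1 to -0.052 without control 2. Decr2, the peroxisomal dienoyl-CoA reductase, had 8.52 and 9.41 FPKM in MBP, against 8.11 and 8.696 FPKM in the controls (log2 fold change 0.083, -0.11 to 0.27), and Crot, which makes acylcarnitines for export, had 4.201 and 4.33 FPKM in MBP, against 3.899 and 4.36 FPKM in the controls (log2 fold change 0.039, -0.16 to 0.24).

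Among peroxins, those that place proteins in the membrane are Pex3, Pex16 and Pex19. Pex19, the soluble carrier of membrane proteins (chromosome 1, 172126755 to 172136493, plus strand), was the most abundant peroxin, with 19.5 and 20.7 FPKM in the MBP libraries, against 19.1 and 22.3 FPKM in the controls, and its groups overlapped (log2 fold change -0.034, -0.26 to 0.19). Pex3, its membrane anchor, had 4.62 and 4.64 FPKM in MBP, against 4.57 and 4.31 FPKM in the controls, narrowly higher in MBP (log2 fold change 0.050, -0.13 to 0.23), and -0.028 after the GC and length correction. Pex16, which helps Pex3 reach the membrane, had 3.41 and 4.02 FPKM in MBP, against 4.095 and 3.49 FPKM in the controls (log2 fold change -0.023).

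Import of matrix enzymes uses the receptors Pex5, for the C-terminal signal, and Pex7, for the N-terminal signal, and the docking proteins Pex13 and Pex14. Pex5 had 6.85 and 7.05 FPKM in MBP, against 6.75 and 7.17 FPKM in the controls, with a log2 fold change of -0.0011 (-0.17 to 0.16). Pex7 lay under the filter at 0.798 and 0.747 FPKM in MBP, against 0.672 and 0.856 FPKM in the controls, from 231 and 234 reads in MBP and 198 and 244 in the controls, its joined exons of 12092 bases being 1.49 times its longest transcript. Pex14 (chromosome 4, 148960535 to 149099876, minus strand) had 6.902 and 7.21 FPKM in the MBP libraries, against 7.68 and 8.44 FPKM in the controls, and its groups did not overlap. It had the lowest p of the peroxins, with a log2 fold change of -0.17 (95% interval -0.35 to 0.014, limma adjusted p = 0.519) and -0.14 after the GC and length correction. With single libraries left out it ran from -0.23 without control 1 to -0.11 without control 2. The antisense gene Gm17029 covers 28.3% of the exon bases of Pex14 and held 1, 1, 1 and 3 reads in MBP 1, MBP 2, control 1 and control 2. Pex13, the partner in docking, had 4.79 and 5.13 FPKM in MBP, against 4.802 and 4.76 FPKM in the controls, with overlapping groups and a log2 fold change of 0.043 (-0.13 to 0.22).

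Receptor recycling uses the ubiquitin ligase subunits Pex2 and Pex10 and the AAA ATPase Pex6 with its anchor Pex26. Pex2 had 7.14 and 8.23 FPKM in MBP, against 7.201 and 9.03 FPKM in the controls (log2 fold change -0.066), and Pex10 had 3.99 and 3.69 FPKM in MBP, against 3.92 and 4.296 FPKM in the controls (log2 fold change -0.079), both with overlapping groups. Pex6 had 5.67 and 6.02 FPKM in MBP, against 6.07 and 6.59 FPKM in the controls, lower in both MBP libraries, with a log2 fold change of -0.098 (-0.28 to 0.087). Its transcript has the highest GC content of the tested members, 63.0%, and its value turned to 0.0079 after the GC and length correction. Pex26 stood at -0.018. Pex11a, which elongates peroxisomes and is induced by peroxisome proliferators in rodent liver, had 1.08 and 1.26 FPKM in MBP, against 1.41 and 1.31 FPKM in the controls, from 82 and 104 reads in MBP and 109 and 98 in the controls, with groups that did not overlap and a log2 fold change of -0.12 (-0.41 to 0.17, limma adjusted p = 0.713) that ran from -0.18 without MBP 2 to -0.059 without MBP 1.

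**Figure D2:**
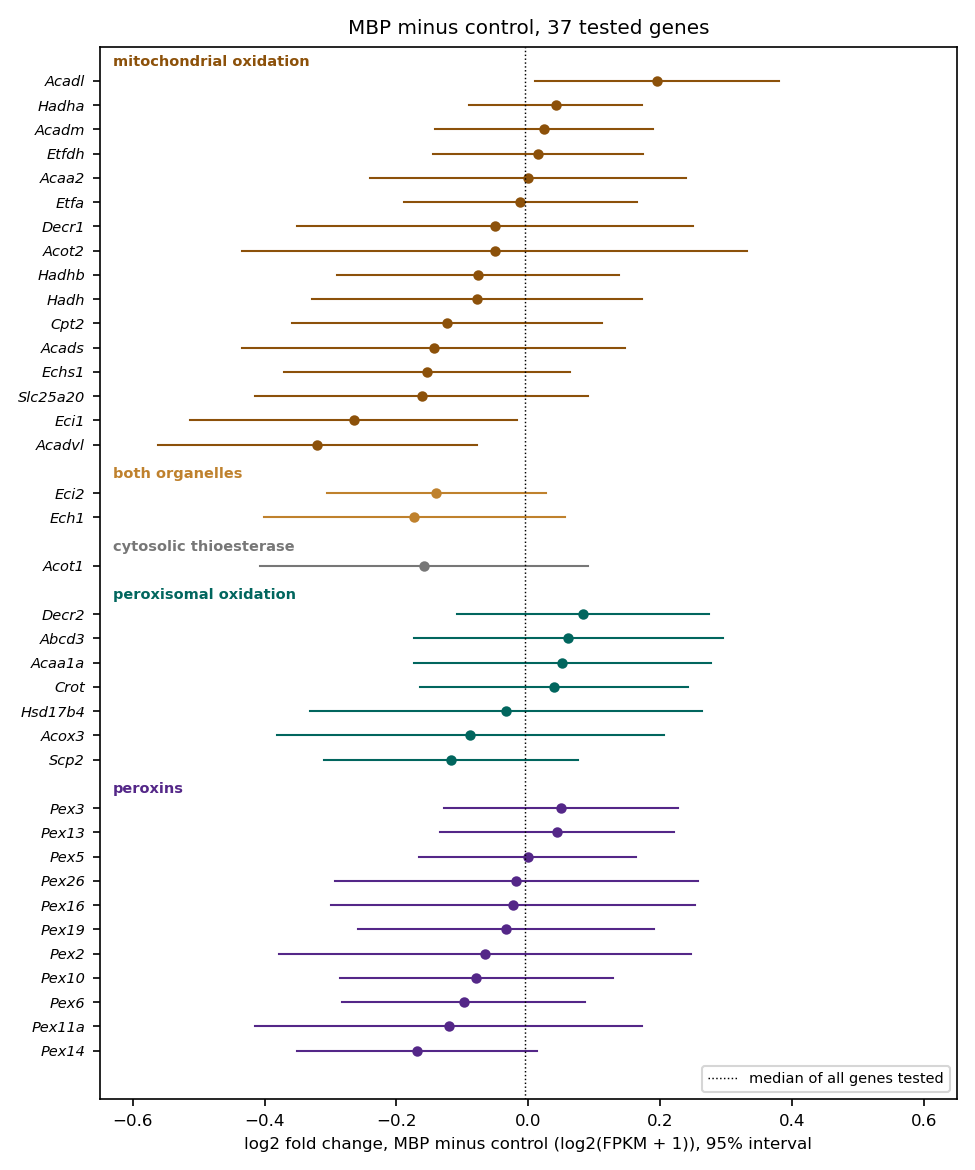
Log2 fold change, MBP minus control, of the 37 tested genes with limma's 95% interval, grouped by where the proteins work, and the median of all tested genes dotted. The intervals of Acadl, Eci1 and Acadvl leave out 0 before adjustment over all genes, and those of the other 34 include it.

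Medians of the log2 fold change were -0.064 over the 16 tested genes of mitochondrial oxidation, 0.039 over the 7 of peroxisomal oxidation and -0.034 over the 11 peroxins, beside -0.0048 over all 12403 genes. The share with groups that did not overlap was 37.5%, 14.3% and 36.4%, each below the 44.8% of all genes. No test of the differences between these classes was made. As medians over the class of log2(FPKM + 1) minus the mean of the gene, mitochondrial oxidation stood at -0.072 in MBP 1, 0.016 in MBP 2, -0.025 in control 1 and 0.12 in control 2. The controls thus lay 0.15 apart, while the MBP mean minus the control mean was -0.078. Peroxisomal oxidation stood at -0.027, 0.037, -0.081 and 0.020 in the same order, and the peroxins at -0.057, 0.017, -0.0025 and 0.038.

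Control 2 was the highest library for 22 of the 37 genes, 59.5%, against 32.3% of all tested genes, and MBP 1 was the lowest for 18, 48.6%, against 27.3%. Without control 2 the medians were 0.010 for mitochondrial oxidation, 0.10 for peroxisomal oxidation and -0.026 for the peroxins. Without control 1 they were -0.20, -0.020 and -0.090 in the same order. The sign of the mitochondrial median therefore turned with control 2 left out, and that of the peroxisomal median with control 1 or with MBP 2 left out (-0.043). The peroxin median turned with MBP 1 left out (0.0057).

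**Figure D3:**
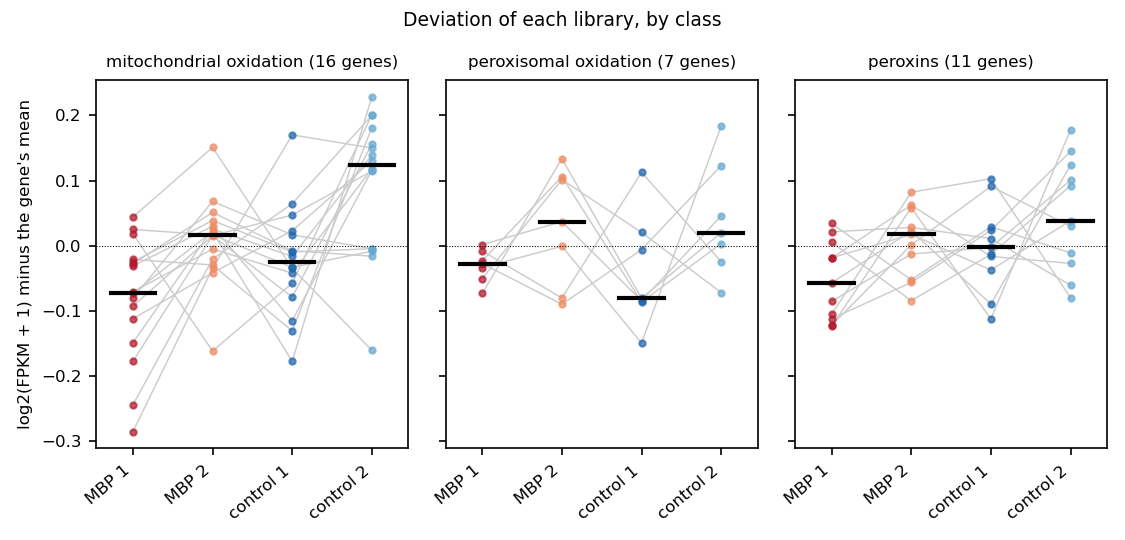
Value of each tested gene in each library, as log2(FPKM + 1) minus the mean of the gene over the 4 libraries, with lines joining a gene and black bars at the class median. In mitochondrial oxidation control 2 stands above control 1, and MBP 2 and control 1 lie close together.

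**Figure D4:**
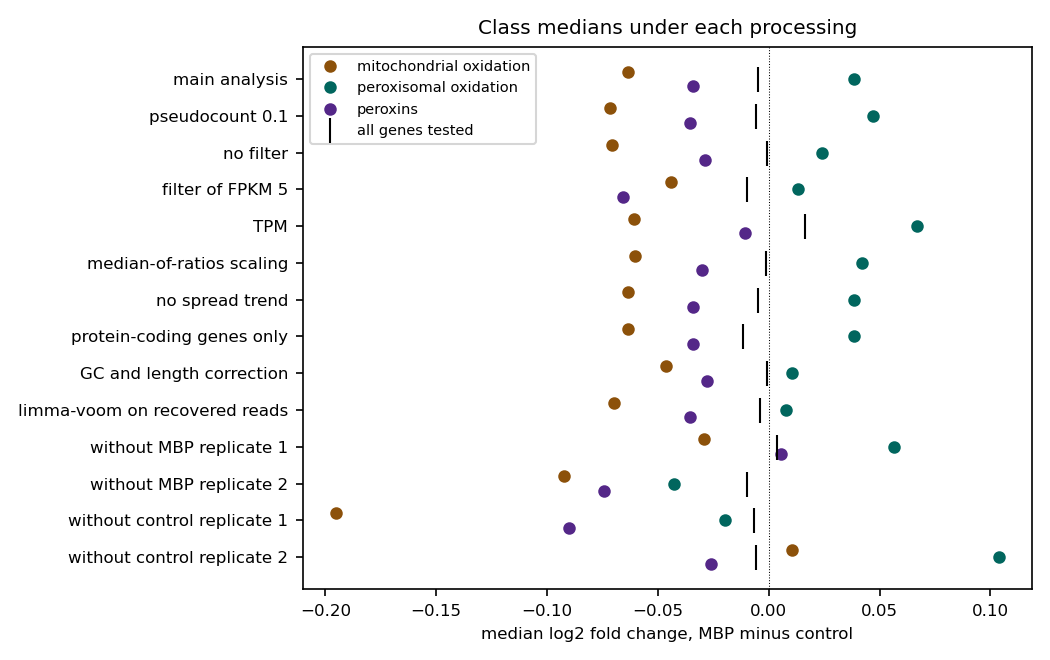
Median log2 fold change, MBP minus control, of mitochondrial oxidation, peroxisomal oxidation and peroxins under each processing, with the median of all tested genes as a black tick. For mitochondrial oxidation, changes of unit, filter or model move the median less than leaving out control 1 or control 2, which takes it to -0.20 or 0.010.

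Fold changes over the whole table followed the GC content of the longest transcript, with Spearman's rho of -0.44 across 12389 genes, which share the same 4 libraries and are not independent. Across the 37 members it was -0.32, and their GC content ran from 38.5% to 63.0% with a median of 49.6%, near the 49.0% of all tested genes. After the GC and length correction the class medians were -0.046, 0.010 and -0.028 for mitochondrial oxidation, peroxisomal oxidation and peroxins. Acadl stood at 0.19, Acadvl at -0.25 and Eci1 at -0.18 after it, each in the same direction as before.

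**Figure D5:**
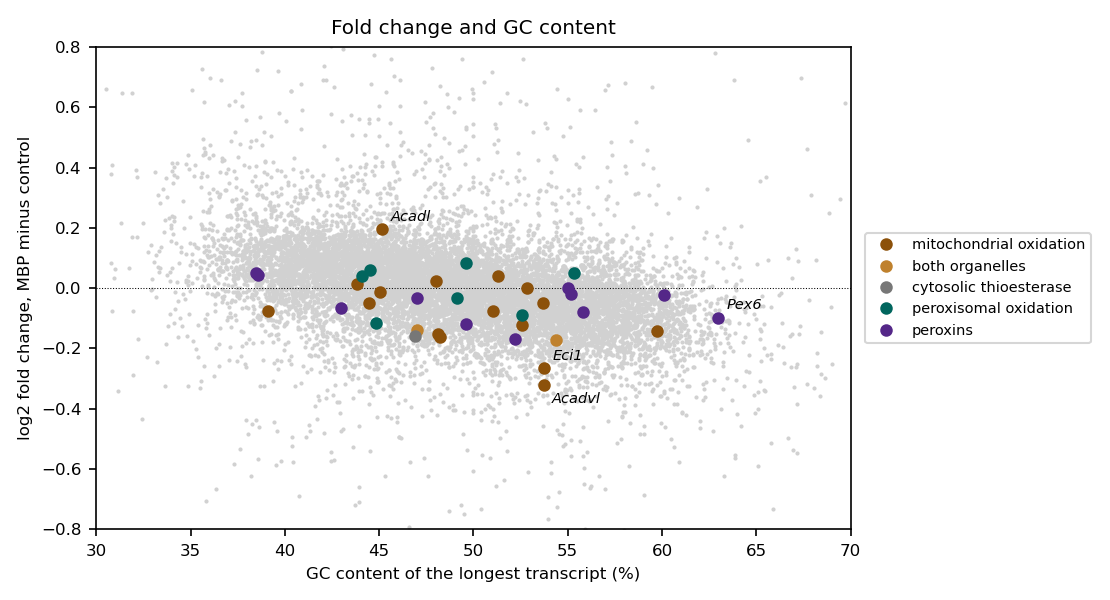
Log2 fold change, MBP minus control, against GC content of the longest transcript, with members in colour and other tested genes in grey (genes beyond the axis limits are not drawn). The grey cloud slopes downward with GC content, and Acadl and the pair Acadvl and Eci1 lie at opposite edges of the members.

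Other genes of the pathway, listed by function, gave the same count of 0 passing limma's test. The list held 72 genes, of which 65 were found by name and 51 tested. Groups did not overlap for 26 of the 51, 51.0%, beside 44.8% of all tested genes. Of these 9 lay higher in MBP, beside 21.3% of all genes, and 17 lower, beside 23.5%. The median log2 fold change was -0.039. By class it was -0.078 over 15 further mitochondrial genes, -0.039 over 21 peroxisomal enzymes and transporters, 0.045 over 9 further peroxins and division genes and -0.018 over 6 receptors and coactivators.

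Cpt1a, the rate-setting enzyme of entry into mitochondria, had 15.8 and 16.6 FPKM in MBP, against 17.6 and 16.7 FPKM in the controls (log2 fold change -0.078, -0.23 to 0.074). Cat, catalase, which removes the hydrogen peroxide, had 62.2 and 56.8 FPKM in MBP, against 55.4 and 54.3 FPKM in the controls, higher in both MBP libraries (log2 fold change 0.11, -0.052 to 0.28, limma adjusted p = 0.582). The value for Cat ran from 0.049 without MBP 1 to 0.18 without MBP 2. The groups overlapped for neither Cpt1a nor Cat, which differed in opposite directions.

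Pecr, a peroxisomal reductase of enoyl-CoA (chromosome 1, 72259167 to 72284314, minus strand), had 3.14 and 3.51 FPKM in the MBP libraries, against 4.58 and 4.93 FPKM in the controls. Both MBP libraries lay below both controls by more than the spread within either group, with a log2 fold change of -0.41 (95% interval -0.62 to -0.20, unadjusted p = 0.00418, limma adjusted p = 0.457), -0.35 after the GC and length correction and -0.47 to -0.35 with single libraries left out. On this scale it was the largest difference among the tested genes of the pathway lists, and it did not pass the test. Idh1, an NADP isocitrate dehydrogenase of cytosol and peroxisome, had 5.996 and 6.700 FPKM in MBP, against 7.01 and 7.49 FPKM in the controls (log2 fold change -0.17). Crat, carnitine acetyltransferase, had 8.81 and 8.57 FPKM in MBP, against 9.47 and 9.76 FPKM in the controls (log2 fold change -0.13). Dnm1l, the GTPase that divides mitochondria and peroxisomes, had 50.6 and 50.3 FPKM in MBP, against 46.2 and 41.2 FPKM in the controls, higher in both MBP libraries (log2 fold change 0.20, 0.023 to 0.39, limma adjusted p = 0.503), with values from 0.12 without control 2 to 0.28 without control 1. Usp9x, a deubiquitinase that acts on Pex5, had 34.8 and 33.9 FPKM in MBP, against 32.5 and 30.7 FPKM in the controls (log2 fold change 0.12), and -0.0072 after the GC and length correction.

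The receptors that control these genes in liver were unevenly present. Ppara, PPAR alpha, was nearly silent, at 0.0109 and 0.0302 FPKM in MBP and 0.0428 and 0.0111 FPKM in the controls, from 1 and 3 reads in MBP and 4 and 1 in the controls. Ppard, the related receptor PPAR delta, which was named after its values were seen, had 10.8 and 10.6 FPKM in MBP, against 10.5 and 9.21 FPKM in the controls. Esrra, the estrogen-related receptor alpha, a regulator of mitochondrial genes, had 12.02 and 13.4 FPKM in MBP, against 14.2 and 15.9 FPKM in the controls (log2 fold change -0.22, -0.44 to -0.0045, limma adjusted p = 0.512), and Rxrb, a partner of the PPARs, had 4.53 and 4.63 FPKM in MBP, against 4.86 and 5.62 FPKM in the controls (log2 fold change -0.16). Both lay lower in MBP with groups that did not overlap, and the value for Esrra ran from -0.30 without control 1 to -0.15 without control 2. Esrra stood at -0.19 and Rxrb at -0.053 after the GC and length correction.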

How the data were processed

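Total RNA of 4 samples was depleted of ribosomal RNA and made into directional libraries, per the labels' protocols. Software named in the submitters' processing notes is bcl2fastq and HISAT2, with the genome GRCm38. The sources used here give no versions, counting program, strand setting or annotation. The authors deposited FPKM values for 24169 genes in 1 table, matched here to samples by column title. Replicate numbers follow accession order and pair nothing.

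Read numbers and depth were recovered from FPKM times the joined exon length (GENCODE mouse release 21, equal coordinates for 22424 genes). Within 0.05 of a read, at least 99.95% of values under 1000 reads were whole in 6079 single-exon genes, and 98.8% in all these genes. Reads are not independent molecules.

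Genes with at least 1 FPKM in 2 or more libraries (12403) were tested as log2(FPKM + 1) with limma 3.58.1 in R 4.3.3 (trended spread, two-sided, Benjamini-Hochberg adjustment, threshold 0.05). The procedure was first run on simulated reads with changes larger than that of any member. That run therefore does not show whether changes of the size seen here would be found. Alternatives were a pseudocount of 0.1, a filter of 5 or none, TPM computed from the FPKM and scaling by median of ratios. Others were no spread trend, only protein-coding genes, limma-voom on recovered reads, leaving out each library, and the GC and length correction. For this correction, loess (span 0.5) on GC content and transcript length was fitted to the deviations of each library from the gene means. The fitted values were subtracted from that library before limma.

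Members and lists were chosen with earlier results of these data known. The rule for named genes took, from each of the 3 classes, the 4 members with the lowest p and the 2 most abundant, the members outside these classes, those under the filter, and from each further list the 2 genes with the lowest p, with Cpt1a, Cat and Ppara. Not every gene so chosen is reported here. Other members are described as well. Promoter sequences are from RefSeq (GRCm38.p6).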

Additional observations from a re-analysis of the deposited data

How the results depend on the processing

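The count of members passing the test stayed at 0 in the main analysis and in all 13 alternatives, with lowest adjusted p-values among members from 0.238 (without control 1) to 0.974 (without MBP 1). Among all tested genes 0 passed, except with limma-voom on recovered reads, which called 9. With single libraries left out, the medians ranged from -0.20 to 0.010 for mitochondrial oxidation, from -0.043 to 0.10 for peroxisomal oxidation and from -0.090 to 0.0057 for the peroxins, and in the other alternatives they kept their sign. Of 377 values of 30 named genes under the alternatives, 367 kept their direction and 10 turned. Many of the 30 were chosen by lowest p in these data, which favours a kept sign, so this share does not describe all members. Among tested members outside the 30, the GC and length correction turned Acaa2, Etfdh, Acot2, Pex3, Pex5, Pex13, Pex16 and Pex26. Within the 30, TPM turned Etfa (0.0093), and the GC and length correction turned Pex6 (0.0079) and Usp9x (-0.0072). With single libraries left out, signs turned for Etfa (-0.087 to 0.062, positive without MBP 1), Abcd3 (-0.043 to 0.16, negative without MBP 2), Hsd17b4 (-0.20 to 0.13, positive without control 2), Pex19 (-0.14 to 0.072) and Pex2 (-0.21 to 0.080), the last 2 positive without MBP 1 or control 2. The cause was not tested. No paired analysis was made because the labels state no pairing between the groups. With 2 libraries a group, 1 of them decides the sign of each class median. Etfb, Ehhadh and Ppara rest on too few reads for a fold to be read.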
